A study of Mus musculus with 8 samples.

Results

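Efferocytosis without a second stimulus was described by comparing 2 samples of bone marrow-derived macrophages (BMDMs) that had been given apoptotic cells (Eff) with 2 samples that had not (Ctrl), out of 8 samples in all. The other 4 samples had LPS and IFNγ on top, without (LPS) or with (LPSEff) apoptotic cells, and are used here only to estimate the spread between samples and for values set beside. Genes were kept when their mean over the 8 samples was at least 10 normalized counts, that is, read counts divided by a size factor for each sample, which left 16309 of 55359 genes. Of these, 15189 had a mean of at least 10 in Ctrl, and the remaining 1120 had a mean under 10 in Ctrl and were kept apart as genes that naïve Mϕ hardly expressed.

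All BMDMs came from wild type C57BL/6 mice, male and female adults, and were differentiated for 7 days with M-CSF and GM-CSF, each at 20 ng/mL. On day 6 the Eff cells received apoptotic NIH-3T3 cells at 5 for each Mϕ for 16 h, with the dimerizer at 10 nM present throughout. NIH-3T3 is an embryonic mouse fibroblast line, here carrying a caspase-8 domain that the dimerizer switches on, so that the fibroblasts die by apoptosis. Per the paper, the apoptotic cells were removed and the BMDMs washed before the 6 h stimulation of the other groups. Neither LPS nor IFNγ was given to Ctrl and Eff, and the paper's methods do not say how long these were kept after the co-culture. The Ctrl labels name no dimerizer, so that a dimerizer effect and an apoptotic cell effect cannot be told apart. CD45+ cells were then isolated with magnetic beads, CD45 being a surface protein of blood-derived cells that fibroblasts lack. Both partners of the co-culture are murine, and their transcripts were counted on the same genes. The labels do not say whether the samples came from separate mice or cultures, so p-values measure the spread between these samples, which may be technical.

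Efferocytosis is the uptake of dying cells by phagocytes. Receptors such as MerTK and Axl bind phosphatidylserine on the dying cell through bridging proteins, the cytoskeleton closes around the prey, and the phagosome fuses with lysosomes, where protein, nucleic acid and lipid are broken down. The Mϕ thereby takes in membrane cholesterol and fatty acids. Cholesterol holds the SREBP transcription factors in the endoplasmic reticulum through INSIG proteins, which lowers synthesis of sterols and fatty acids, while oxysterols and fatty acids switch on the LXR and PPAR receptors, which raise lipid export, storage and oxidation.

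Recovered read totals were 3481288 and 12020918 in the Ctrl samples and 7517814 and 9745287 in the Eff samples, and a depth of 3 reads corresponded to 5.71 normalized counts in the shallowest, the first Ctrl sample. The cells were Mϕ by their markers. Of 20 macrophage markers 19 passed the filter, and their summed level was 158215 and 167436 normalized counts in Ctrl and 145437 and 188975 in Eff. The median log2 fold change of the 19 was −0.04, and 1 of them was called lower with the replicate block described below (against 0.975% of all tested genes). Lymphocyte and erythroid markers were near the floor, with sums of at most 49.5 normalized counts over 16 genes and 24.5 over 9 genes in these 4 samples. None of the 4 tested mast cell and basophil markers and of 5 sex-linked genes was called, with or without the block. Cx3cr1 was the macrophage marker below the filter, with 9.52 and 12.1 normalized counts in Ctrl and 7.89 and 4.94 in Eff.

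Few genes passed the test and most of the largest rises were matrix genes. With limma on log2(normalized count + 1), 41 genes had a Benjamini-Hochberg adjusted p under 0.05 and are referred to as called. Of them 35 were higher in Eff (0.215% of the genes tested) and 6 lower (0.0368%). Among genes with a Ctrl mean of at least 10, 11 were higher (0.0724%) and the same 6 lower (0.0395%). The replicate numbers in the sample titles were taken to pair the samples, because differences between the numbers correlated between the groups. A replicate block, which compares the samples within a number, called 436 genes, with all 41 among them. With the block, 277 were higher (1.7%), 178 of which had a Ctrl mean of at least 10 (1.17% of that class), and 159 were lower (0.975%), all in that class (1.05%). Regardless of a call, both Eff samples lay above both Ctrl samples for 16.3% of the genes and below them for 17.8%, and for 14.5% and 18.7% of the genes with a Ctrl mean of at least 10. Single samples mattered for the test without the block: 4 genes were called without the first Ctrl sample, 8 without the second, 33 without the first Eff sample, of which none was lower, and none without the second Eff sample. With the block the same omissions left 114, 575, 260 and 142 calls. The median log2 fold change was −0.01 over all genes.

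**Figure D1:**
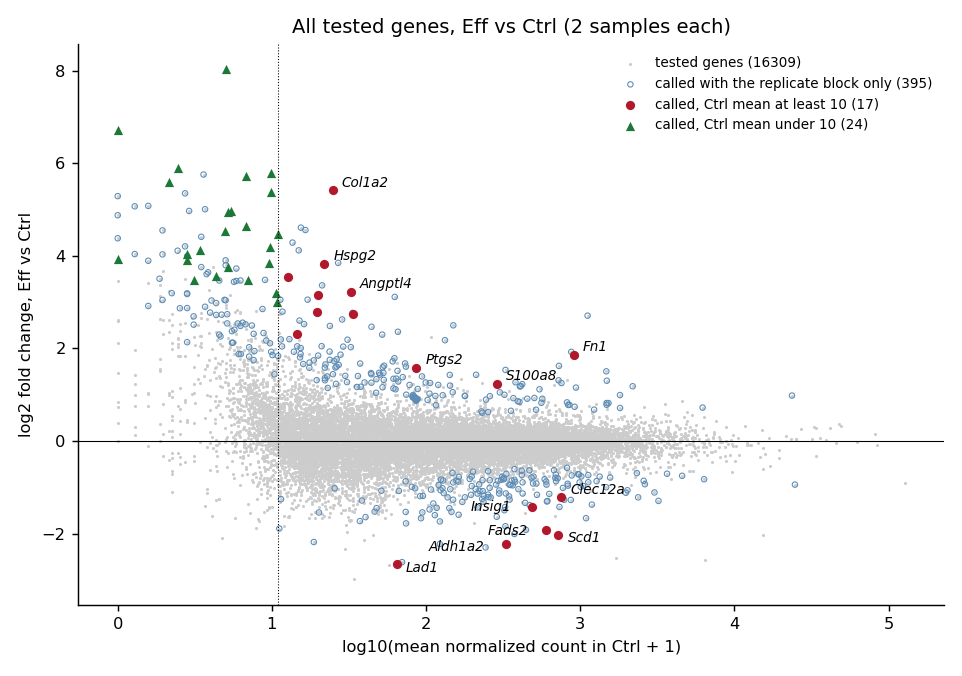
Log2 fold change of Eff against Ctrl (2 samples each) plotted against the mean level in Ctrl as log10(normalized count + 1), with 1 point per tested gene. Red points are the 17 called genes with a Ctrl mean of at least 10, green triangles the 24 called genes below that mean (right and left of the dotted line), and open blue circles the 395 genes called with the replicate block only. The 6 lower called genes, from Lad1 to Clec12a, lie between −2.67 and −1.22.

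Genes of cholesterol synthesis were lower in Eff throughout. All 24 tested members of a list of sterol synthesis and uptake genes, which SREBP2 drives, were lower in both Eff samples than in both Ctrl samples, against 18.7% of genes with a Ctrl mean of at least 10. Their median log2 fold change was −1.08, with −1.02 between the samples numbered 1 and −1.15 between those numbered 2. One, Insig1, was called without the block and 15 with it, against 0.0395% and 1.05% of genes with a Ctrl mean of at least 10 called lower. The remaining member of the list did not pass the filter.

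Insig1 (ENSMUSG00000045294, chromosome 5 from 28276315 to 28283668 in GRCm39) encodes the sterol-regulated anchor of SREBP and had 533 and 445 normalized counts in Ctrl and 188 and 171 in Eff (a log2 fold change of −1.43 with an SE of 0.19, adjusted p = 0.0402). Hmgcs1, which makes HMG-CoA on the way to mevalonate, had 678 and 892 normalized counts in Ctrl and 282 and 366 in Eff (log2 fold change −1.27, adjusted p = 0.487 without and 0.0126 with the block). Its Eff samples lay well below the lower Ctrl sample.

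Because these genes moved together, their promoters were searched for TCACNCCAC, the core letters of a sterol regulatory element, on both strands of RefSeq promoter windows of 300 bases (GRCm38.p6), from 250 bases before to 50 after each start. Windows were found for 17 of the sterol genes, and 1 of them, that of Hmgcs1, held the letters, against 1.42% of the 10235 tested genes with a window and 1.24% of all 32851 windows. The match, shown because it was the one match among these genes, starts 137 bases upstream of the annotated start. The stretch printed around it is chr13:119690204-119690233 on the plus strand, with the matching letters in capitals.
Hmgcs1: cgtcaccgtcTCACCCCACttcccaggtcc
No window of 16 fatty acid synthesis genes held these letters. Since the search covered only exact matches in short windows, it describes the letters and not the binding of a factor.

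Other enzymes of the pathway had log2 fold changes of similar or larger size. Cyp51, which demethylates lanosterol, had 996 and 1184 normalized counts in Ctrl and 263 and 442 in Eff (log2 fold change −1.67, adjusted p = 0.314 without and 0.00209 with the block). Fdps, which makes farnesyl diphosphate, had 179 and 64.8 normalized counts in Ctrl and 40.3 and 24.7 in Eff (log2 fold change −1.74, adjusted p = 0.475 without and 0.00963 with the block). Its Ctrl samples differed strongly, yet within each number Eff was well under Ctrl. Acat2, which makes acetoacetyl-CoA, had 162 and 161 normalized counts in Ctrl and 48.2 and 57.9 in Eff (log2 fold change −1.60, adjusted p = 0.0848 without and 0.00934 with the block). Srebf2, the gene of SREBP2 itself, had 2138 and 2249 normalized counts in Ctrl and 1468 and 1398 in Eff, which did not pass the test (adjusted p = 0.483 without and 0.0581 with the block). Srebf2 was named after its values had been seen.

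Among fatty acid synthesis genes, the SREBP1 branch, desaturases were called lower, 2 of 17 tested genes without the block and 3 with it. The shares called lower among genes with a Ctrl mean of at least 10 were 0.0395% and 1.05%. Scd1 (ENSMUSG00000037071, chromosome 19 from 44382894 to 44399154), which makes monounsaturated fatty acids, had 754 and 688 normalized counts in Ctrl and 166 and 186 in Eff (a log2 fold change of −2.03 with an SE of 0.20, adjusted p = 0.0125), the lower level in Eff being 4.07-fold on the fitted scale. Fads2 (ENSMUSG00000024665, chromosome 19 from 10038130 to 10079203), a desaturase of polyunsaturated fatty acids, had 548 and 642 normalized counts in Ctrl and 128 and 189.8 in Eff (a log2 fold change of −1.92 with an SE of 0.27, adjusted p = 0.0426). Scd2, the second desaturase of stearate, had 3395 and 3035 normalized counts in Ctrl and 1286 and 1329 in Eff and was called with the block only (log2 fold change −1.30, adjusted p = 0.221 without and 0.00663 with the block). The other 14 tested members were not called, among them the desaturase Fads1 with 657 and 794 normalized counts in Ctrl and 373 and 552 in Eff, named after its values had been seen. Fasn, the synthase itself, had 3499.9 and 3087 normalized counts in Ctrl and 2673 and 1848 in Eff in ranges that did not overlap, but an adjusted p of 0.255 even with the block. Over the 17 members the median was −0.56, with both Eff samples below both Ctrl samples in 13, against 18.7% of the genes with a Ctrl mean of at least 10, and 3 members (Me1, Gpam and Acacb) had positive values.

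**Figure D2:**
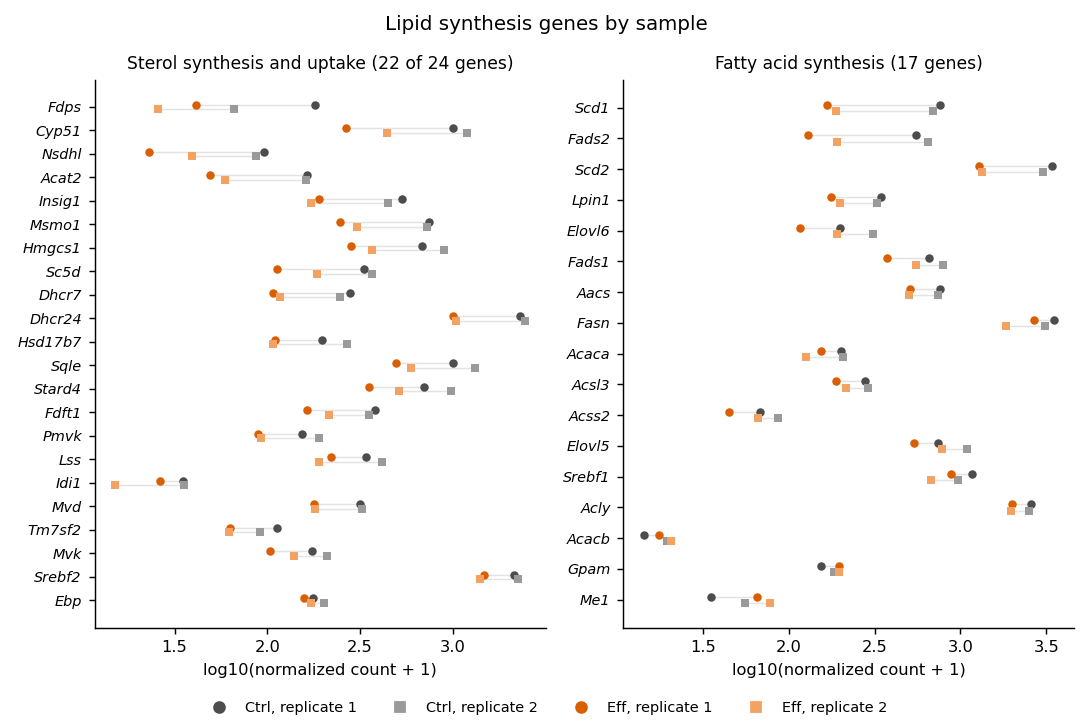
Level of tested genes of sterol synthesis and uptake (left, 22 of 24 genes) and fatty acid synthesis (right, 17 genes) in the 2 Ctrl and 2 Eff samples, as log10(normalized count + 1), with a grey line joining samples of the same number. In the left panel every orange symbol lies to the left of both grey ones, and in the right panel Scd1, Fads2 and Scd2 at the top show the widest gaps.

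Some genes of lipid storage and oxidation were higher. Angptl4 (ENSMUSG00000002289, chromosome 17 from 33992724 to 34000804), a secreted inhibitor of lipoprotein lipase and PPAR target, had 36.2 and 26.6 normalized counts in Ctrl and 199.8 and 445 in Eff (a log2 fold change of 3.22 with an SE of 0.44, adjusted p = 0.0402). Plin2, the coat protein of lipid droplets, had 2331 and 2044 normalized counts in Ctrl and 4459 and 5501 in Eff (log2 fold change 1.18, adjusted p = 0.0740 without and 0.00393 with the block), a 2.27-fold higher level on the fitted scale. Cpt1a, which admits fatty acids into mitochondria, had 729 and 911 normalized counts in Ctrl and 1230.3 and 1716 in Eff (log2 fold change 0.83, adjusted p = 0.393 without and 0.0102 with the block). Pdk4, which turns pyruvate oxidation off, was at 1.90 and 1.73 normalized counts in Ctrl, 1 and 3 reads, and at 20.2 and 29.6 in Eff, a description only, since a gene this low in Ctrl passed the filter through groups where it was high. Lpl, the lipase that releases fatty acids from lipoproteins, went the other way, with 22439 and 26938 normalized counts in Ctrl and 10229.7 and 15971 in Eff (log2 fold change −0.94, adjusted p = 0.765 without and 0.0237 with the block). Angptl4, Plin2, Cpt1a and Lpl were the genes called, without the block or with it, among 25 PPAR and lipid handling genes with a Ctrl mean of at least 10 (background with the block 1.17% higher and 1.05% lower). The median over the 26 tested genes, −0.01, was near that of all genes.

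Targets of LXR did not move as a group. Abca1, the cholesterol exporter, had 710.3 and 634 normalized counts in Ctrl and 1539 and 1546 in Eff, a log2 fold change of 1.20 that missed the threshold (adjusted p = 0.413 without and 0.0590 with the block). Abcg1, its partner in export, had 5621 and 5030.1 normalized counts in Ctrl and 5549 and 5529 in Eff, and these ranges overlapped. Of 13 tested LXR targets Scd1 was called lower and, with the block, Plin2 higher, both also SREBP or PPAR targets. With the block 0.975% of all tested genes were called lower and 1.7% higher. Abca1 and Abcg1 were named after their values had been seen.

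The 3 remaining genes called lower belong to other functions. Aldh1a2 (ENSMUSG00000013584, chromosome 9 from 71122630 to 71203527), which makes retinoic acid from retinal, had 343 and 317 normalized counts in Ctrl and 73.6 and 66.3 in Eff (a log2 fold change of −2.22 with an SE of 0.25, adjusted p = 0.0183), a 4.67-fold lower level. None of the other 11 tested retinoic acid genes was called, with or without the block. Lad1 (ENSMUSG00000041782, chromosome 1 from 135746332 to 135761080), which encodes a filament protein of basement membranes, had 57.1 and 70.6 normalized counts in Ctrl and 7.89 and 10.6 in Eff (a log2 fold change of −2.67 with an SE of 0.38, adjusted p = 0.0426). Clec12a (ENSMUSG00000053063, chromosome 6 from 129319654 to 129342266), an inhibitory C-type lectin receptor that senses uric acid crystals of dead cells, had 731 and 777 normalized counts in Ctrl and 304 and 343 in Eff (a log2 fold change of −1.22 with an SE of 0.17, adjusted p = 0.0402). In all 3 genes the samples of a group lay close together and far from the other group. None of the 6 lower calls was kept in the test without the block when a single Ctrl or Eff sample was left out, and all 6 were kept under each omission with the block.

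Among the largest falls with the block, Serpina3g, an intracellular protease inhibitor, had 99.0 and 145 normalized counts in Ctrl and 19.3 and 31.8 in Eff (log2 fold change −2.23, adjusted p = 0.0749 without and 0.00186 with the block). The pseudogene Gm56487 lies within it on the same strand and had 53.3 and 84.4 normalized counts in Ctrl and 6.13 and 16.2 in Eff, so its value is uncertain. Some small RNAs were also among them, and here the Ctrl samples were far apart. The mitochondrial threonine tRNA mt-Tt had 592 and 154 normalized counts in Ctrl and 78.9 and 69.9 in Eff, and the snRNA gene Gm23680 had 354 and 130.1 normalized counts in Ctrl and 98.1 and 18.3 in Eff. The lncRNA Gm37787, antisense to Slamf7, had 20.9 and 14.5 normalized counts in Ctrl and 2.63 and 3.53 in Eff, and the interferon-induced GTPase pseudogene Gvin5 had 7.62 and 12.7 normalized counts in Ctrl and 1.75 and 2.12 in Eff, the latter close to the floor.

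Genes induced by interferon were mostly lower in Eff, without any LPS or IFNγ having been added. Of 58 tested members of the list, 55 had a negative log2 fold change, 33 had both Eff samples below both Ctrl samples (against 17.8% of all tested genes) and none had both above, and the median was −0.60, or −0.38 without the second Eff sample. None was called without the block and 13 were called lower with it, against 0.975% of all tested genes. Mx1, an antiviral GTPase, had 227 and 234 normalized counts in Ctrl and 99.9 and 92.5 in Eff (log2 fold change −1.25, adjusted p = 0.0553 without and 0.00209 with the block). Gbp5, a guanylate-binding protein that acts on inflammasomes, had 116 and 158 normalized counts in Ctrl and 51.7 and 64.2 in Eff (log2 fold change −1.22, adjusted p = 0.212 without and 0.000928 with the block). Cxcl10, the chemokine for activated T cells, had 43.8 and 49.7 normalized counts in Ctrl and 12.3 and 21.9 in Eff (log2 fold change −1.45, adjusted p = 0.258 without and 0.00369 with the block). Phf11b and Ifit1, the latter a sensor of viral RNA, had 36.2 and 42.8 and 78.1 and 53.2 normalized counts in Ctrl against 7.01 and 19.8 and 38.6 and 23.3 in Eff, with an adjusted p of 0.0157 and 0.0252 with the block. The other called members were Rsad2, Irf1, Stat2, Ifih1, Gbp2, Cxcl9, Ifi203 and Epsti1, of which Cxcl9 was close to the floor.

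Cytokine and chemokine genes moved in both directions. Of 28 pro-inflammatory genes with a Ctrl mean of at least 10, 3 were higher and 6 lower with the block, against 1.17% and 1.05% of all genes of that class. Ptgs2 (ENSMUSG00000032487, chromosome 1 from 149975194 to 149983978), which encodes cyclooxygenase-2 and thus drives prostaglandin E2 synthesis, was the one called without it, with 83.8 and 86.7 normalized counts in Ctrl and 235 and 279 in Eff (a log2 fold change of 1.58 with an SE of 0.18, adjusted p = 0.0229). An antisense gene, Ptgs2os, overlaps it. Cxcl3, which attracts neutrophils, had 85.7 and 37.6 normalized counts in Ctrl and 917 and 272 in Eff (log2 fold change 3.11, adjusted p = 0.138 without and 0.000548 with the block). Cxcl1, with the same role, had 7.62 and 4.63 normalized counts in Ctrl and 31.5 and 17.6 in Eff, but lay under a mean of 10 in Ctrl and passed the filter through groups where it was high. In both the first Eff sample was the higher one. Osm, which encodes oncostatin M, was the remaining riser, with 457 and 278 normalized counts in Ctrl and 1002 and 457 in Eff, and was named after its values had been seen.

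The genes lower with the block were Il12b, Cxcl10, Cxcl9, Ccl22, Ccl17 and Ccl5. Cxcl9 was close to the floor, with 4 and 23 reads in Ctrl and 3 and 7 in Eff. Cxcl10 and Cxcl9 are also counted among the interferon-induced genes, and Ccl22 and Ccl17 among the dendritic cell markers. Il12b, the shared subunit of IL-12 and IL-23, had 110.4 and 179.9 normalized counts in Ctrl and 33.3 and 69.2 in Eff (log2 fold change −1.53, adjusted p = 0.390 without and 0.000531 with the block). Ccl22 and Ccl17, ligands of CCR4, had 2584 and 3472 and 861 and 1154 normalized counts in Ctrl and 1221 and 1570.2 and 362 and 692 in Eff, with an adjusted p of 0.0102 and 0.0440 with the block. Of 23 tested genes of anti-inflammatory and alternative activation, 1 was higher and 3 lower with the block (against 1.7% and 0.975%). Il1rn, the antagonist of the IL-1 receptor, had 724 and 729 normalized counts in Ctrl and 2664 and 1879 in Eff (log2 fold change 1.62, adjusted p = 0.141 without and 0.00120 with the block), while Clec10a, Irf4 and Nr4a3 were lower. Irf4, a transcription factor of alternative activation and of dendritic cells, had 377 and 669 normalized counts in Ctrl and 149 and 335 in Eff. The second sample of each group was the higher one for Irf4, and the ranges did not overlap.

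Dendritic cell markers leaned lower beside these genes. GM-CSF cultures of bone marrow hold both Mϕ and cells with dendritic features, and in bulk RNA fewer cells of a type and less RNA per cell cannot be told apart. All 12 tested markers of 14 had a negative value (median −0.72), and 5 were called lower with the block (against 0.975% of all tested genes), namely Batf3, Dpp4, Ccl22, Ccl17 and Itgax. The median was −0.83 between the samples numbered 1 and −0.64 between those numbered 2. Leaving out a sample without the block compares samples of unlike numbers, and there the median depended on single samples. It was −1.22 without the first and −0.42 without the second Ctrl sample, and −0.12 without the first and −1.36 without the second Eff sample. Batf3, a factor of conventional dendritic cells, had 162 and 119 normalized counts in Ctrl and 50.8 and 49.4 in Eff (log2 fold change −1.45, adjusted p = 0.112 without and 0.0106 with the block), and Itgax, which encodes CD11c, had 2386 and 6771 normalized counts in Ctrl and 1317 and 4317 in Eff (log2 fold change −0.75, adjusted p = 0.999 without and 0.0285 with the block). The summed level of the 14 markers was 10142 and 18015 normalized counts in Ctrl and 5602 and 10928 in Eff, so that the groups overlapped. The first samples were lower than the second in both groups. Clec9a and Cd209a did not pass the filter, and 1 marker was at 0 in the first Eff sample. Their part in the falls of Il12b, Irf4, the chemokines and the interferon-induced genes was not tested.

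Antigen presentation through MHC class II leaned the same way, but without the block the sign of its median depended on single samples. All 13 genes had a negative value (median −0.46), with medians of −0.51 between the samples numbered 1 and −0.62 between those numbered 2. Both Eff samples were below both Ctrl samples in 1 of them, and the second Eff sample was above the first in all 13. Leaving out a sample without the block compares samples of unlike numbers. The median was then 0.14 without the second Ctrl sample and 0.07 without the first Eff sample. Cd40, a co-stimulatory receptor, was the member called lower with the block, against 0.975% of all tested genes. Its level was 68.6 and 120.3 normalized counts in Ctrl and 26.3 and 58.6 in Eff (log2 fold change −1.19, adjusted p = 0.594 without and 0.0121 with the block). Cd74, the invariant chain, had 6253 and 12961 normalized counts in Ctrl and 3798 and 8425 in Eff, and H2-Ab1 had 3698 and 13865 normalized counts in Ctrl and 2865 and 9961 in Eff, neither of which was called.

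**Figure D3:**
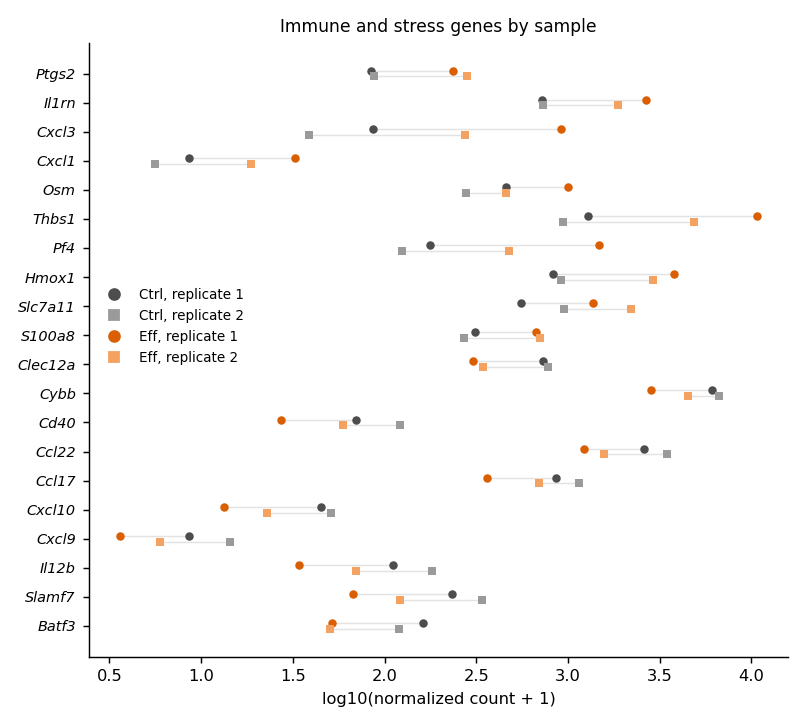
Level of 20 immune and stress genes, chosen after their values had been seen, in the 2 Ctrl and 2 Eff samples as log10(normalized count + 1), with a grey line joining samples of the same number. For each gene, from Ptgs2 to S100a8 the Eff symbol lies to the right of the Ctrl symbol of the same number, and from Clec12a to Batf3 it lies to the left.

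Genes against oxidative stress leaned higher. Of 31 tested targets of NRF2, the transcription factor of the antioxidant response, 29 had a positive value, both Eff samples were above both Ctrl samples in 19 (against 16.3% of all tested genes), and 12 were called with the block (against 1.7%) and none without it. The median was 0.58, with 0.68 between the samples numbered 1 and 0.63 between those numbered 2. Without the block it was 0.34 without the first and 0.89 without the second Ctrl sample and 0.36 without the second Eff sample. Hmox1, which degrades heme, had 830.2 and 917 normalized counts in Ctrl and 3762 and 2922 in Eff (log2 fold change 1.92, adjusted p = 0.265 without and 0.00562 with the block). Slc7a11, the cystine importer, had 554 and 955 normalized counts in Ctrl and 1363 and 2203 in Eff (log2 fold change 1.25, adjusted p = 0.378 without and 0.00227 with the block). Nqo1 and Gclm, a quinone reductase and a subunit of glutathione synthesis, had 81.9 and 115 and 319.9 and 519 normalized counts in Ctrl and 176 and 312 and 747 and 1222 in Eff (adjusted p = 0.00861 and 0.00605 with the block). Prdx1 and Prdx6, peroxiredoxins that remove peroxides, were called with the block too, as were Gsr, Txnrd1, Srxn1, Ftl1, Fth1 and Blvrb. Fth1, the ferritin heavy chain, was among the most abundant transcripts with 22587 and 24656 normalized counts in Ctrl and 47036 and 46137 in Eff. Fibroblasts express many of these genes as well, and their part was not tested.

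S100a8 (ENSMUSG00000056054, chromosome 3 from 90567118 to 90578128), a calcium-binding alarmin of myeloid cells, had 308 and 269 normalized counts in Ctrl and 665 and 699 in Eff (a log2 fold change of 1.24 with an SE of 0.17, adjusted p = 0.0402). Its partner S100a9 had 519.8 and 327 normalized counts in Ctrl and 541 and 306 in Eff, a difference of −0.02 that was not called (adjusted p = 0.999). Of 10 tested neutrophil markers S100a8 was called, and with the block Mmp8 as well, whose level was 5259 and 7172 normalized counts in Ctrl and 8874 and 11538 in Eff. Higher calls were 0.215% of all tested genes without the block and 1.7% with it. Of the 10 markers, 4 had a negative log2 fold change, down to −1.81. The median was 0.33, but −0.38 without the first and 0.99 without the second Eff sample. Arg1, a marker of alternative activation, had 2096 and 437 normalized counts in Ctrl and 4071 and 683 in Eff and was not called.

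Thbs1, a bridging molecule between apoptotic cells and CD36 that also activates TGFβ, showed one of the largest rises among abundant genes, with 1291 and 939 normalized counts in Ctrl and 10665 and 4853 in Eff (log2 fold change 2.71, adjusted p = 0.299 without and 0.00186 with the block). The first Eff sample was far above the second, and both were well above Ctrl. Among 30 tested receptors and bridging molecules of efferocytosis, Havcr2, which encodes the phosphatidylserine receptor TIM-3, was the other riser with the block, with 228 and 577 normalized counts in Ctrl and 535 and 795 in Eff (adjusted p = 0.0439), although these ranges overlapped. Axl and Scarb1, a TAM receptor kinase and a scavenger receptor, were lower with the block, at 3361 and 3947 normalized counts in Ctrl and 1973 and 2515 in Eff (adjusted p = 0.0480) and 1063 and 899 normalized counts in Ctrl and 641 and 546 in Eff (adjusted p = 0.0298). Mertk had 341 and 257 normalized counts in Ctrl and 166 and 269.6 in Eff, which overlapped. In all, 2 genes of the list were higher and 2 lower with the block, against 1.7% and 0.975% of all tested genes. The median over the list was 0.05.

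The machinery of engulfment and digestion held few calls. None of 22 engulfment genes and none of 41 autophagy genes was called, with or without the block. Of 63 lysosomal genes Pld4, an endolysosomal nuclease, was lower with the block, against 0.975% of all tested genes. Its level was 2521 and 2136 normalized counts in Ctrl and 1537 and 1335 in Eff (adjusted p = 0.0173 with the block). The medians of the engulfment, autophagy and lysosomal genes were 0.08, −0.00 and −0.10. Psap and Ctsd, the lysosomal genes with the highest level, had 95012 and 73862 and 67779 and 56939 normalized counts in Ctrl and 87554 and 70580.3 and 58341 and 63793 in Eff. Glycolysis and HIF-1 (35 genes), arginine and polyamine metabolism (19 genes), purine and nucleotide receptors (16 genes) and DNA replication and mitosis (49 genes) had no call either. In the last list 40 genes had a negative value, 19 of them with both Eff samples below both Ctrl samples (against 17.8% of all tested genes), and the median was −0.20, but −0.32 without the first and −0.09 without the second Ctrl sample. Of 39 genes of ATF4 and the unfolded protein response, Slc7a11 was called higher with the block, against 1.7% of all tested genes. A gene that missed the threshold here may still differ by less than 2 samples a group can show.

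Secreted factors of repair and matrix turnover were higher in part. Timp1, an inhibitor of metalloproteinases, had 19.0 and 37.0 normalized counts in Ctrl and 75.4 and 167 in Eff (log2 fold change 2.04, adjusted p = 0.175 without and 0.00605 with the block), and Mmp9, a gelatinase, had 24.8 and 17.3 normalized counts in Ctrl and 62.2 and 48.0 in Eff (log2 fold change 1.36, adjusted p = 0.370 without and 0.0376 with the block). With Mmp8 and Timp3 they were the 4 of 18 genes called higher with the block (against 1.7% of all tested genes), and Mmp12, the Mϕ elastase, was not (29524 and 53795 normalized counts in Ctrl and 34223 and 68433 in Eff). Of 21 growth factors with a Ctrl mean of at least 10, Pdgfa and Ccn2 were higher with the block, against 1.17%. Pdgfa, a chain of platelet-derived growth factor, had 381 and 439 normalized counts in Ctrl and 1250.5 and 694 in Eff (log2 fold change 1.19, adjusted p = 0.295 without and 0.0231 with the block), and Ccn2, a matricellular factor, had 3.81 and 21.98 normalized counts in Ctrl and 16.6 and 89.6 in Eff, in ranges that overlapped. Of 34 TGFβ signaling genes of that class, Thbs1 and the latent TGFβ binding protein Ltbp3 were higher with the block, against 1.17%, and none was called without it. Ltbp3 had 103 and 51.5 normalized counts in Ctrl and 196 and 147 in Eff. Some members under a Ctrl mean of 10 were also higher, and as these passed the filter through groups where they were high, their values are a description. Ereg, an EGF receptor ligand, had 1.90 and 1.73 normalized counts in Ctrl and 19.3 and 98.1 in Eff, and Ltbp1 had 3.81 and 2.89 normalized counts in Ctrl and 35.9 and 70.6 in Eff. Timp3 and Ccn2 are also counted on the list of fibroblast and matrix markers below. Whether the rises of this paragraph came from Mϕ or from NIH-3T3 material was not tested.

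**Figure D4:**
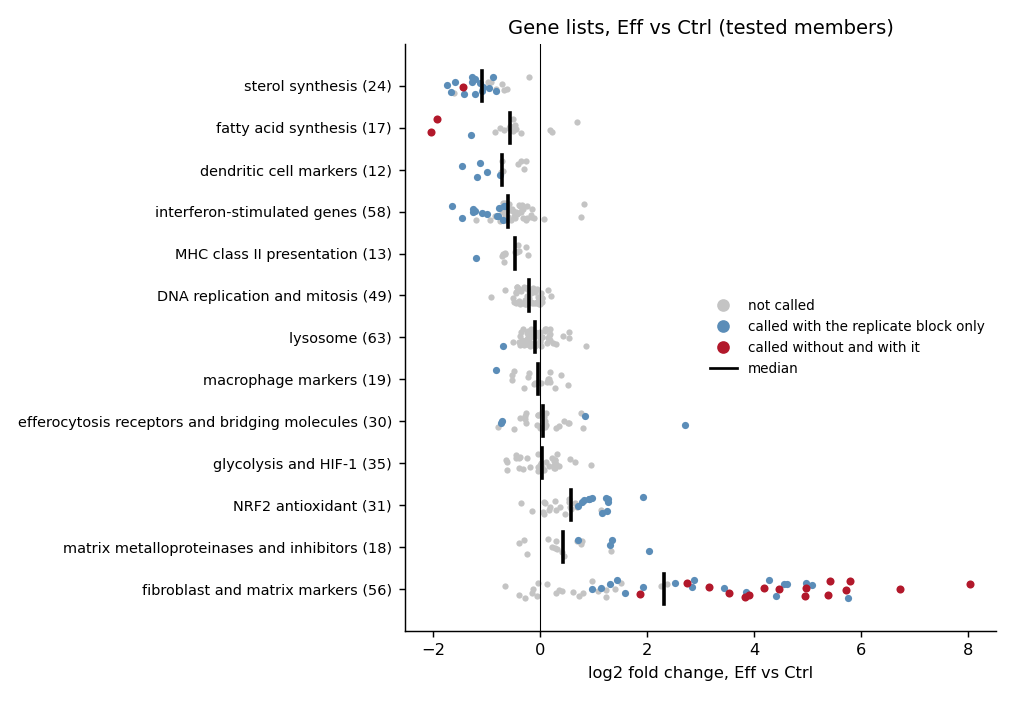
Log2 fold change of Eff against Ctrl for the tested members of 13 gene lists, with 1 point per gene, the number of genes in parentheses and a black bar at the median. Blue points were called with the replicate block only and red points without it as well. Sterol synthesis lies wholly below 0 with a median of −1.08, and fibroblast and matrix markers reach from −0.66 to 8.03.

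Matrix genes made up most of the largest rises. Of 65 fibroblast and matrix markers 56 passed the filter, 32 of them with a Ctrl mean of at least 10. Of these 32, 6 were called higher (against 0.0724%) and 17 with the block (against 1.17%), none was called lower, 7 had a negative value, and the median log2 fold change was 1.27. The remaining 24 passed the filter through groups where they were high. The summed level of the 65 genes was 10138 and 13274 normalized counts in Ctrl and 17263 and 25019 in Eff, and 9 did not pass the filter, among them Lum, Postn and Fap. Mostly the second Eff sample was the higher one. Over the 17 called with the block and a Ctrl mean of at least 10 it was above the first in 16, with a median ratio of 1.93, while the other 139 risers of that class, protocadherins aside, had it above in 95, with a median of 1.27, against 1.06 over all tested genes. Whether such transcripts came from Mϕ or from NIH-3T3 material cannot be told apart in these samples.

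Among those with a Ctrl mean of at least 10, Fn1 (ENSMUSG00000026193, chromosome 1 from 71624673 to 71692419), which encodes fibronectin and is made by Mϕ as well, had 986 and 822 normalized counts in Ctrl and 2902 and 3726 in Eff (a log2 fold change of 1.87 with an SE of 0.27, adjusted p = 0.0436). Nid1 and Hspg2, basement membrane components, had 30.5 and 34.7 and 20.9 and 20.8 normalized counts in Ctrl and 167 and 301 and 262 and 363 in Eff, with log2 fold changes of 2.75 and 3.82 (adjusted p = 0.0436 and 0.0118). Fbn1, which encodes fibrillin-1, and Pdgfra, a growth factor receptor of mesenchymal cells, had 15.2 and 8.10 and 24.8 and 13.3 in Ctrl and 109.5 and 179 and 112 and 258 in Eff (adjusted p = 0.0125 and 0.0425). Col1a2, a chain of type I collagen, had 7.62 and 39.9 normalized counts in Ctrl and 582 and 1107 in Eff (a log2 fold change of 5.42 with an SE of 0.74, adjusted p = 0.0402). The remaining called genes of this class, not on the list, were Sema3c, a secreted guidance protein, with 22.9 and 14.5 normalized counts in Ctrl and 162 and 107 in Eff (a log2 fold change of 2.79 with an SE of 0.31, adjusted p = 0.0183), and Adamts1, a matrix protease, with 13.3 and 13.9 normalized counts in Ctrl and 51.7 and 98.1 in Eff (a log2 fold change of 2.31 with an SE of 0.33, adjusted p = 0.0426). In Sema3c the first Eff sample was the higher one, in Adamts1 the second.

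With the block, Col4a2, Fbln2, Serpinh1, Sparc, Tm4sf1 and Oaf were among the 10 largest rises of this class. Fbln2, a matrix protein, had 5.71 and 23.1 normalized counts in Ctrl and 223 and 430.5 in Eff (adjusted p = 0.0528 without and 0.000696 with the block), and Sparc, a collagen-binding protein, had 3.81 and 21.4 normalized counts in Ctrl and 87.6 and 462 in Eff (adjusted p = 0.293 and 0.000226). For these genes the first Ctrl sample was near its floor, with 2 to 6 reads for Sparc, Serpinh1, Fbln2, Tm4sf1 and Oaf, so that their fold change is imprecise.

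The 24 called genes with a Ctrl mean under 10 passed the filter through other groups, so that they had to be higher somewhere, and their values are a description. Of them 10 are on the fibroblast and matrix list, as are 17 of the 99 called with the block. Efemp1, a fibulin, had no read in either Ctrl sample and 48.2 and 227 normalized counts in Eff. Col6a3, a chain of collagen VI, had 0 and 8.10 in Ctrl and 605 and 1020.5 in Eff. Col4a1 and Lamb1, basement membrane chains, had 11.4 and 6.36 and 5.71 and 5.78 in Ctrl and 413 and 675 and 260.3 and 485 in Eff. Aebp1, Col3a1, Bgn and Pxdn, all of the matrix, had Ctrl values from 1.90 to 12.1 and Eff values from 78.9 to 520.1. Aqp1, a water channel, had 0 and 2.89 in Ctrl and 70.1 and 195 in Eff, and Nav3, a protein known from neurons, had 0 and 2.31 in Ctrl and 64.0 and 119 in Eff.

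**Figure D5:**
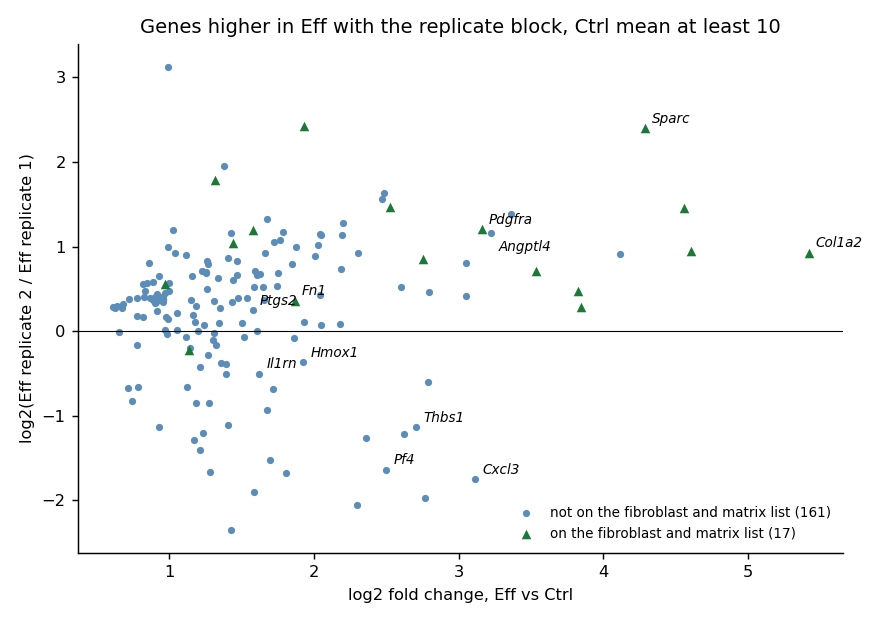
Genes higher in Eff with the replicate block and a Ctrl mean of at least 10 (178 genes), with the log2 fold change on the x axis and the log2 ratio of Eff replicate 2 to Eff replicate 1 on the y axis. Of the 17 green triangles, which are on the fibroblast and matrix list, 16 lie above 0, while Cxcl3, Pf4, Thbs1, Hmox1 and Il1rn lie below it. The dense group near an x of 0.9 is the protocadherin gamma cluster.

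A set of 22 of these 178 genes was not independent. All 22 tested genes of the protocadherin gamma cluster on chromosome 18, adhesion molecules known from neurons, were called higher with the block (adjusted p from 0.00835 to 0.0312) and none without it. Their variable first exons are spliced to shared 3′ exons, and apart from Pcdhgc3 the other 21 had nearly equal values, from 68.6 to 78.1 and 92.5 to 100 normalized counts in the Ctrl samples and 136 to 145 and 178 to 183 in the Eff samples. Counting at default parameters would leave out reads shared by several genes, so that how these values were counted is uncertain. Counted as 1 gene, they leave 157 rises with the block in this class. The cluster was noticed after the values had been seen.

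Genes that the study measured by RT-qPCR in cultures of the same kind were not called. From RT-qPCR with more replicates, the paper reported no change of basal Il1b, Il6 and Il10 after efferocytosis alone. Il1b had 109 and 74.0 normalized counts in Ctrl and 129.7 and 107 in Eff, and Il6 had 11.4 and 15.6 normalized counts in Ctrl and 17.5 and 24.0 in Eff, with an adjusted p of 0.299 and 0.212 even with the block. Il10 was at or under the floor in all 4 samples, with 1.90 and 0 normalized counts in Ctrl and 0.876 and 0 in Eff. Tbp, to which the paper normalized mRNA levels, had 238 and 284 normalized counts in Ctrl and 267 and 279 in Eff. Gapdh, which the paper followed across polysome fractions, had 419 and 708 normalized counts in Ctrl and 1049.8 and 1056 in Eff and was not called either.

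The same step under LPS and IFNγ, LPSEff against LPS, shares no sample with this comparison. It called 119 genes higher (0.73%) and 7 lower (0.0429%). All 11 higher and all 6 lower genes with a Ctrl mean of at least 10 had the same sign there, with 8 and 2 called, and 67.6% of all tested genes had the same sign. With the block the shares were 173 of 178 and 149 of 159. Aldh1a2 had a log2 fold change of −2.22 without and −2.07 with stimulation, Scd1 −2.03 and −1.15, Insig1 −1.43 and −0.25, and Ptgs2 1.58 and 0.10. The median of the sterol genes was −1.08 and −0.39, and that of the interferon-induced genes −0.60 and −0.04. No gene passed the test of the difference between both contexts in limma, with or without the block, or in edgeR or DESeq2 without it, with 311 and 1052 genes at an unadjusted p under 0.05 in limma, while 29 passed in DESeq2 with the block.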

How the data were processed

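Total RNA of 8 BMDM samples was sequenced, 2 in each of 4 groups taken from the sample titles. Libraries were made after rRNA depletion. Per the submitters' processing notes and the methods, the authors used cutadapt for adapters, Bowtie2 against remaining rRNA, STAR with mm39 as the genome, and HTSeq at default parameters, while versions and annotation are not given in the sources used here. What the authors deposited is a signal, each gene's count after division by the DESeq2 size factor of its sample. Dividing by the smallest nonzero value of a sample gave whole reads for 100% of the values in each of the 8 samples (tolerance 0.1). Totals ranged from 3481288 to 12020918, and such floors as 3 reads cover counting error only. Symbols and positions came from GENCODE vM39 on GRCm39 for 54749 of 55359 identifiers. Reads of overlapping genes may not be told apart.

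Differences were tested with limma 3.58.1 (R 4.3.3, trend) on log2(normalized count + 1) over 16309 genes with all 8 samples in 4 groups (4 residual degrees of freedom), two-sided, with Benjamini-Hochberg adjustment at 0.05. A fold change on this scale understates that of low genes. An exact permutation test of 2 against 2 samples cannot go below p = 0.333. Differences between the samples numbered 1 and 2 correlated between all 6 pairs of groups (Pearson's r across genes from 0.404 to 0.595), so the numbers in the titles were taken to pair the samples. The test with the replicate number as a block (3 residual degrees of freedom) is given where it changed a call. Alternatives included edgeR 4.0.16 and DESeq2 1.42.0 on recovered reads. On simulated data with 200 of 15996 genes changed between Eff and Ctrl, limma found 97% of 4-fold and 42% of 2-fold changes, with 6.08% false calls. The simulated counts had a spread set alike for every gene and no replicate effect, unlike the real samples. These rates therefore need not hold for the real samples.

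Groups, 31 gene lists and the members were chosen with earlier results of these data known, so no list is independent evidence. Genes were named if called with a Ctrl mean of at least 10, if among the 10 largest called rises below that mean, if among the 10 largest rises or falls with the block whose samples did not overlap, if among up to 6 called members of a list (the 2 most abundant where fewer than 2 were called), or if the study lists primers for them. Single values of 4 list members are not reported here. Exceptions are marked in the text, and Pf4 and Slamf7 in the figures are further ones.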

Additional observations from a re-analysis of the deposited data

Results flagged for a closer look

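Ifit1 and Il6 moved in opposite directions without and with stimulation, in both samples of each context. Ifit1 had 78.1 and 53.2 normalized counts in Ctrl and 38.6 and 23.3 in Eff, and 5530.5 and 6426 in LPS against 7039 and 7349 in LPSEff, so that its log2 fold change was 1.35 higher under stimulation. Il6 had 11.4 and 15.6 normalized counts in Ctrl and 17.5 and 24.0 in Eff, and 10573 and 8099.7 in LPS against 6706 and 6060 in LPSEff, a difference of −1.12 between the log2 fold changes. Neither passed the test of the difference itself (adjusted p = 1.00 and 1.00 in limma, 0.388 and 0.528 with the replicate block), so a difference between the contexts was not shown. No group had enough samples to look for a sample far from the others.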

How the results depend on the processing

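The count of called genes depended on the processing more than the directions did. Calls in Eff against Ctrl (41) numbered 79 without a filter on low values, 20 with a mean of at least 50, 9 with the Ctrl and Eff samples alone, 14 in edgeR and 207 in DESeq2. With the replicate block, which takes the numbers to pair the samples, they were 436 in limma, 429 in edgeR and 515 in DESeq2. Higher genes with a Ctrl mean of at least 10 (11) numbered 25, 5, 2, 3 and 84 in that order, 20 with quantile normalization, and 178, 162 and 206 with the block. With the split at a Ctrl mean of 50 there were 3, since 8 of the 11 had a Ctrl mean from 11.7 to 32.6. Lower genes (6) numbered 2 with Ctrl and Eff alone, 2 in edgeR, 42 in DESeq2, 10 with quantile normalization, and 159, 159 and 196 with the block. Higher genes with a Ctrl mean under 10 (24) numbered 45, 11, 5, 9 and 81, and 99, 108 and 113 with the block. Calls in LPSEff against LPS (126) were 368 in DESeq2 and 1137, 1233 and 1072 with the block, and calls for the difference between contexts (0) were 29 in DESeq2 with the block. The cause of these differences was not tested. Leaving out 1 Ctrl or Eff sample without the block gave 0 to 33 calls, 0 to 7 and 0 genes higher and lower with a Ctrl mean of at least 10, 0 to 26 higher below it, and 60 to 84 in LPSEff against LPS. With the block, leaving out the first and second Ctrl and the first and second Eff sample gave 114, 575, 260 and 142 calls, with 47, 249, 107 and 58 higher and 19, 197, 57 and 49 lower at a Ctrl mean of at least 10, 48, 127, 95 and 35 higher below it, 1201, 1182, 1038 and 1041 in LPSEff against LPS, and 0, 5, 2 and 0 for the difference.

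Of the 28 named genes called without the block, 28 stayed called with it and under every omission with it, in DESeq2 and with quantile normalization, 27 with equal totals and with a pseudocount of 0.5, 26 with one of 5, 15 with a mean of at least 50, 11 in edgeR and 7 with Ctrl and Eff alone, and none changed sign. The median of the sterol genes was −1.20 with quantile normalization and −1.21 to −0.95 without single samples, that of the fatty acid genes −0.59 to −0.41, that of the interferon-induced genes −0.76 to −0.38, and that of the fibroblast markers 3.54 with a mean of at least 50 and 1.60 to 3.17 without single samples. That of the NRF2 targets was 0.34 to 0.89, that of the dendritic cell markers −1.36 to −0.12 and that of DNA replication −0.32 to −0.09. Several medians changed sign without single samples. Among them, that of MHC class II ranged from −1.37 to 0.14, that of the purine receptors from −0.57 to 0.26, that of the efferocytosis receptors from −0.09 to 0.08, and that of the LXR targets from −0.27 to 0.14. For all these medians samples were left out without the block, so that samples of unlike numbers were compared. Depth limits genes near the floor of the first Ctrl sample, 5.71 normalized counts for 3 reads.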
